A study of Homo sapiens with 8 samples.

Results

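The 33 genes described here encode the enzymes of glycolysis from hexokinase to pyruvate kinase, lactate dehydrogenase, the main glucose and lactate carriers, pyruvate dehydrogenase with 1 of its kinases, and 6 enzymes of the pentose phosphate pathway. They were taken by symbol from a table of 25168 genes, in which all 33 were found. Of these, 32 passed the filter on low counts, as did 12843 genes of the whole table, and HK3 did not. RNA was measured by sequencing in KG1a cells, a human line established from acute myeloid leukemia with an immature phenotype. Cells received 5 µM TAK-981, 1 µM venetoclax or 5 µM TAK-981 with 1 µM venetoclax (the combination), and the remaining cells received the DMSO vehicle, for 48 h in each case. Each of the 4 groups held 2 libraries. TAK-981 inhibits the activating enzyme of SUMO, a small modifier joined to other proteins, and venetoclax blocks BCL2, which restrains apoptosis. Each group is the same cell line and not a patient sample, and no label says that its 2 libraries came from separate cultures. The p-values here then reflect only library-to-library spread, which may be technical.

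Glycolysis splits glucose into pyruvate in the cytosol, with a net gain of ATP and NADH. Lactate dehydrogenase turns pyruvate into lactate, which monocarboxylate carriers export, while pyruvate dehydrogenase sends pyruvate into the citric acid cycle and pyruvate dehydrogenase kinases switch that step off. The pentose phosphate pathway draws off glucose 6-phosphate for NADPH and ribose. Many glycolytic genes are known targets of the hypoxia-inducible factor HIF1 and of MYC, and acute myeloid leukemia cells are known to use both glycolysis and respiration.

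Totals ran from 13204588 to 26304900 counts per library. Expression is given as CPM, the usual depth-normalised read count, after scaling by the trimmed mean of M-values (TMM). CD34, which marks immature blood cells, stood between 953 and 1519.5 CPM in the 8 libraries. The lymphoid marker CD7 stood between 7.84 and 15.2 CPM. PTPRC, the pan-leukocyte CD45, had 687 and 617 CPM with TAK-981, 742 and 542 with venetoclax and 458 and 429 with the combination, against 830.2 and 808 with vehicle. SPN, the leukocyte surface protein CD43, had 1028 and 989 CPM with TAK-981, 778 and 722 with venetoclax and 983 and 952 with the combination, against 759 and 699 with vehicle. Of these 4 markers, 1 was called higher with TAK-981, 1 higher with venetoclax, and 1 higher and 1 lower with the combination, each against vehicle. Among all genes, 5.98% were higher with TAK-981, 11.4% with venetoclax and 12.8% with the combination, which had 15.1% lower. Of 10 markers of other blood lineages, HBB, HBG1 and ELANE had 0 counts in every library, and the 10 summed to between 8.05 and 16.1 CPM. With TAK-981 against vehicle, 2 of the 3 tested lineage markers were higher and 1 was lower (5.98% of all genes higher, 6.18% lower). The 2 higher, CD33 and MPO, passed the filter on low counts only through groups that received TAK-981. Their count is therefore not independent of the filter. The T-cell gene CD3E, most of the sum, had 8.34 and 8.02 CPM with TAK-981, 13.1 and 10.4 with venetoclax and 5.62 and 6.41 with the combination, against 13.2 and 15.6 with vehicle. The myeloid marker CD33 had 1.68 and 2.19 CPM with TAK-981, 0.381 and 0.312 with venetoclax and 1.51 and 1.89 with the combination, against 0.434 and 0.384 with vehicle. The granulocyte enzyme gene MPO had 0.473 and 0.642 CPM with TAK-981, 0 and 0 with venetoclax and 0.137 and 0.218 with the combination, against 0 and 0 with vehicle. The part of these markers in the results was not tested. Among the 29 members at or above 5 CPM, the median gap between replicates was 0.0918 log2 units with TAK-981, 0.264 with venetoclax and 0.0875 with the combination, against 0.103 with vehicle. The venetoclax libraries thus stood furthest apart from each other. A set of 5 RNAs without poly(A) tails summed to 31 to 33.3 CPM with TAK-981, 22.2 to 34.9 CPM with venetoclax and 145 to 277 CPM with the combination, against 13.2 to 13.6 CPM with vehicle. Their part in the results on the combination was not tested. In bulk RNA, fewer cells of a kind and less RNA per cell cannot be told apart.

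Together the 33 genes took 1.45% and 1.56% of all counts with TAK-981, 0.937% and 0.897% with venetoclax and 0.77% and 0.764% with the combination, against 1.42% and 1.52% with vehicle. The 4 libraries that received venetoclax lay below all 4 that did not. Lower glycolysis, from GAPDH to pyruvate kinase, carried most of the difference, with 0.396% and 0.403% of counts with venetoclax and 0.378% and 0.366% with the combination, against 0.728% and 0.79% with vehicle. Lactate dehydrogenase held 0.262% and 0.204% with venetoclax and 0.138% and 0.132% with the combination, against 0.277% and 0.298% with vehicle. The pentose phosphate genes held between 0.0471% and 0.0675% in all 8 libraries. An exact permutation test of 2 libraries against 2 cannot go below a p of 0.333, and the shares are given as a description.

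**Figure D1:**
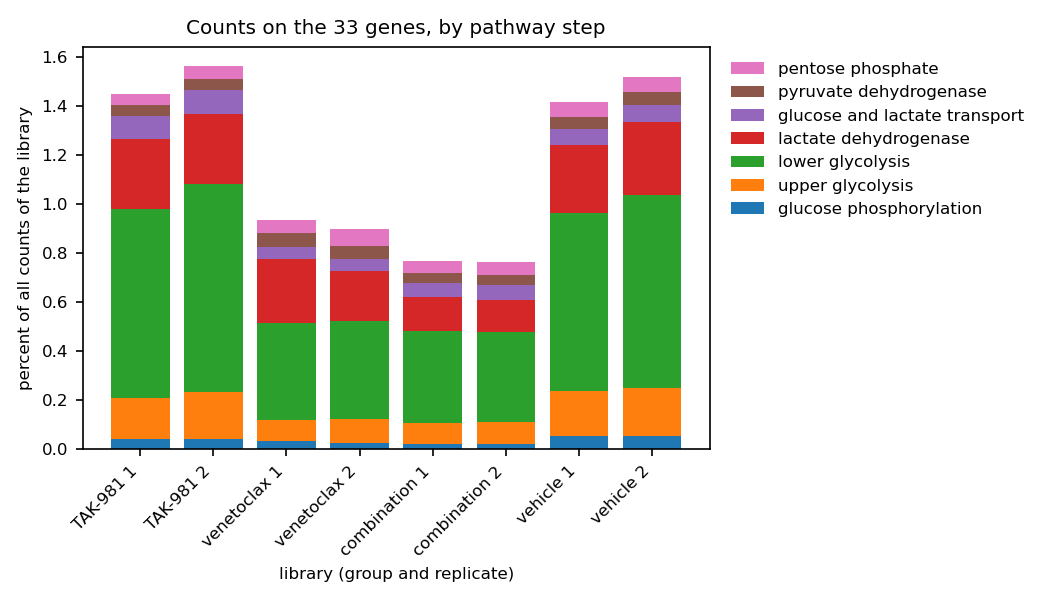
Percent of each library's counts that fell on the 33 genes, stacked by pathway step, with 1 bar per library. The 4 bars of venetoclax and the combination end between 0.764% and 0.937%, below the 4 bars of TAK-981 and vehicle, which end between 1.42% and 1.56%.

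By gene, venetoclax lowered 15 of 32 members relative to vehicle and raised 5, against 9.44% of all genes lower and 11.4% higher. The median log2 fold change of the members was -0.64, against 0.00 for all genes tested. A gene is called here when edgeR's quasi-likelihood test, adjusted by Benjamini and Hochberg over all 12843 genes, gave a p under 0.05. The combination lowered 19 members relative to vehicle and raised 1 (15.1% of all genes lower, 12.8% higher), with a median of -0.72 against 0.01 for all genes. In cells that also received TAK-981, venetoclax lowered 17 members and raised 0 (6.03% of all genes lower, 2.76% higher), with a median of -0.61 against 0.02. TAK-981 alone lowered 5 members and raised 1 (6.18% of all genes lower, 5.98% higher), with a median of -0.12 against 0.00. In cells that received venetoclax, TAK-981 lowered 15 members and raised 2 (22% of all genes lower, 17.6% higher), with a median of -0.33 against -0.02.

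**Figure D2:**
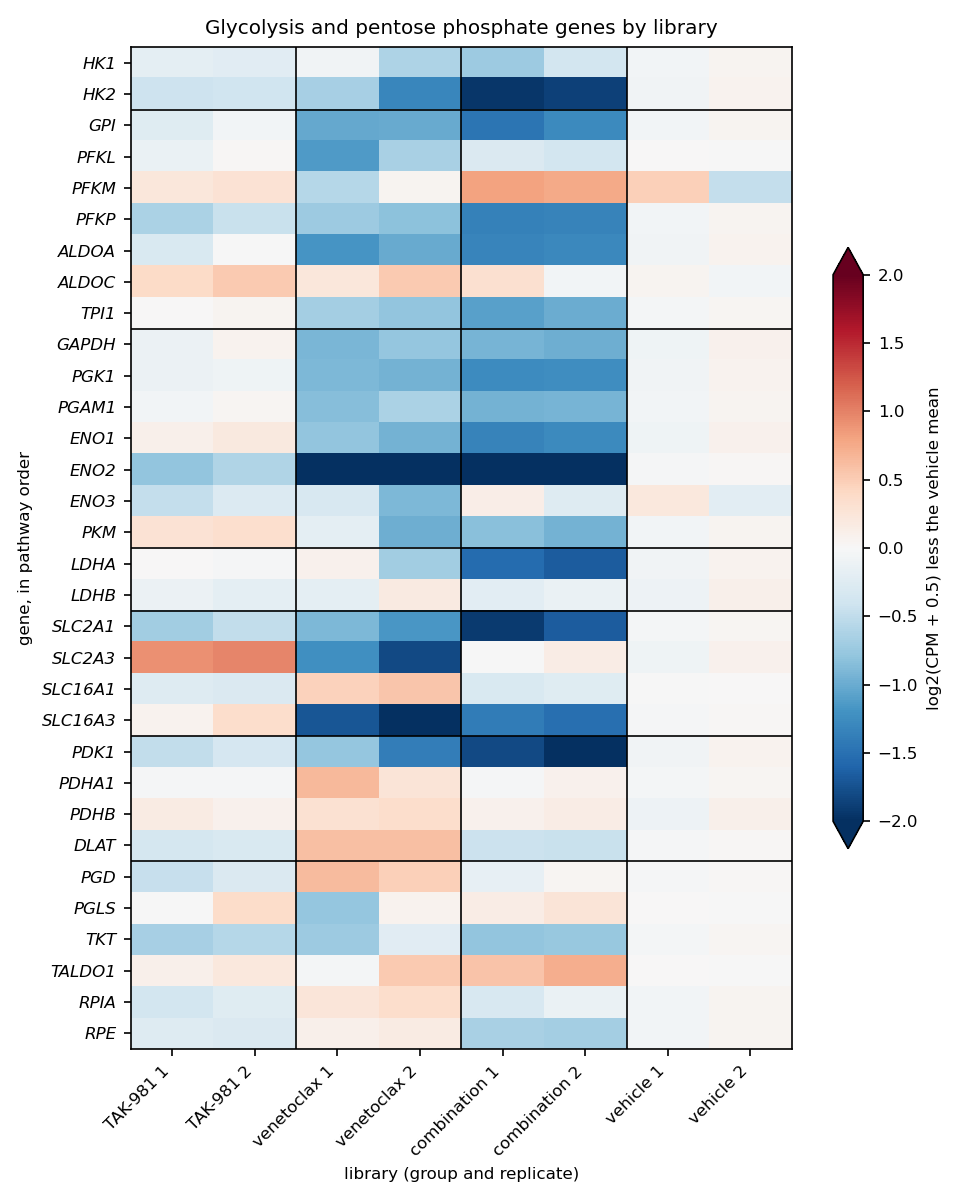
Log2(CPM + 0.5) of the 32 members that passed the filter, less the mean of the vehicle libraries, with genes in pathway order down the page and 1 column per library. Blue is below and red above vehicle, and colours end at 2 log2 units. Most glycolytic genes are blue in the 4 libraries that received venetoclax, while SLC2A3 is red with TAK-981 alone.

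Sequence just before the gene starts is shown for a pair of enolases and a pair of lactate dehydrogenases whose members differed in response, and for PDHB, which venetoclax raised. The 250 bases before a start listed by RefSeq (GRCh38.p14) were read 5′ to 3′ on the strand of the gene. Capitals mark ACGTG or its reverse complement CACGT, a common form of the core of the element that HIF1 binds. These 2 strings overlap in CACGTG, the E-box that MYC also binds. The other form of the core, GCGTG or its reverse complement CACGC, was not searched for, here or in the counts below. It stands unmarked in the ENO1 and PDHB windows.
ENO2, chr12:6914330-6914579, plus strand: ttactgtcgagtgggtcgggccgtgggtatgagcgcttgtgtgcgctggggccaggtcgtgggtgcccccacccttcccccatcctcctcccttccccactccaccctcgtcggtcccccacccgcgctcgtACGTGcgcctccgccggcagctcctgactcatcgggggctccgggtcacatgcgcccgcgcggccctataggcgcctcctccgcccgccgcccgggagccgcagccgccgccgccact
ENO1, chr1:8878687-8878936, minus strand: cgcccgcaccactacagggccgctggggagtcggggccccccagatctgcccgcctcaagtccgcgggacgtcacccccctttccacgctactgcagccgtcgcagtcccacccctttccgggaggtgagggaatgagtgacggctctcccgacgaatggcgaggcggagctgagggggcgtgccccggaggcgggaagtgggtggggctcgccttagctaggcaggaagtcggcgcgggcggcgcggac
LDHA, chr11:18394313-18394562, plus strand: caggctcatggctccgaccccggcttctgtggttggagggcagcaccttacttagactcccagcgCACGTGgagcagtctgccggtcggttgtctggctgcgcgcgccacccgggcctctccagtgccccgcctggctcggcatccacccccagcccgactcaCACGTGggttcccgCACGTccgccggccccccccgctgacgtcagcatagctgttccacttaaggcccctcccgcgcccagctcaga
LDHB, chr12:21657843-21658092, minus strand: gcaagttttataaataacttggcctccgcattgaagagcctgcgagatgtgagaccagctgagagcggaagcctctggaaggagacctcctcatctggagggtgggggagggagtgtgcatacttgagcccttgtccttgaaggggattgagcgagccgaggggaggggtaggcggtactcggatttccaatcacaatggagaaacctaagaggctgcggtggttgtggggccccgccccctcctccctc
PDHB, chr3:58433833-58434082, minus strand: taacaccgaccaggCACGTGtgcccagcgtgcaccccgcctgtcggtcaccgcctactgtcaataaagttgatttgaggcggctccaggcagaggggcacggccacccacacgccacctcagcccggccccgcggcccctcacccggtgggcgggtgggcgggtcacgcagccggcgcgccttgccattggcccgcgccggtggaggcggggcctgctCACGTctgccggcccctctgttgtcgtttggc
The LDHA window, from the upstream of its 2 listed starts, held the letters in 3 places and the PDHB window in 2. The ENO2 window held them once, 118 bases before the start, and the ENO1 and LDHB windows held none. Of 35116 such windows, 18.5% held them on either strand, and 5935 of 27305 genes had them in any window. Of the 33 members 31 had an entry, with 57 windows, and 19 windows (33.3%) held the letters. Among members that venetoclax lowered both without and with TAK-981 it was 13 of 25 windows (52%), in 10 of 13 genes, and among the other members 6 of 32 windows (18.8%), in 6 of 18 genes. Genes with several listed starts, such as HK1 and PFKM among the other members, weigh more in the shares of windows than in the counts of genes. All these counts are a description of letters in a window, over sets of genes chosen by their fold changes, and say nothing of binding.

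Glucose enters cells through facilitative carriers, of which SLC2A1 encodes GLUT1 and SLC2A3 the high-affinity GLUT3. SLC2A1 had 50.8 and 58.7 CPM with TAK-981, 43.9 and 36.6 with venetoclax and 21.6 and 25.7 with the combination, against 80.6 and 84.6 with vehicle. The 4 groups did not overlap, and each drug gave lower values than vehicle, with the lowest in the combination. Its log2 fold change was -0.60 (SE 0.133, adjusted p = 0.0208) for TAK-981, -1.04 (SE 0.135, adjusted p = 0.00277) for venetoclax and -1.81 (SE 0.14, adjusted p = 7.82e-05) for the combination, each against vehicle. SLC2A3 had 629 and 658 CPM with TAK-981, 142 and 95.1 with venetoclax and 329 and 371 with the combination, against 312 and 355 with vehicle. It was highest with TAK-981 alone and lowest with venetoclax alone, and the combination lay close to vehicle. TAK-981 raised it by 0.95 (SE 0.174, adjusted p = 0.00908) and venetoclax changed it by -1.49 (SE 0.177, adjusted p = 0.00218), while the combination stood at 0.07 (SE 0.173, adjusted p = 0.802). Within venetoclax-treated cells TAK-981 raised SLC2A3 by 1.56 (SE 0.178, adjusted p = 0.000466) and changed SLC2A1 by -0.77 (SE 0.14, adjusted p = 0.00326). The count ratio of SLC2A3 to SLC2A1, which no scaling of the library can change, was 3.63 and 3.49 log2 units with TAK-981, 1.70 and 1.38 with venetoclax and 3.93 and 3.85 with the combination, against 1.95 and 2.07 with vehicle. SLC2A14 is a near-identical copy of SLC2A3, so reads could be shared between them. It had 6.32 and 5.56 CPM with TAK-981, 2.74 and 1.87 with venetoclax and 4.66 and 4.81 with the combination, against 3.87 and 3.33 with vehicle.

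Hexokinases trap glucose as glucose 6-phosphate. HK2, the hexokinase typical of fast-growing cells, had 295 and 296 CPM with TAK-981, 247 and 159 with venetoclax and 101 and 108 with the combination, against 375 and 411 with vehicle. All 4 libraries with venetoclax were below the rest, and those of the combination were lowest. Its log2 fold change was -0.96 (SE 0.176, adjusted p = 0.0082) for venetoclax against vehicle, -1.50 (SE 0.179, adjusted p = 0.00287) for the combination against TAK-981 and -0.96 (SE 0.178, adjusted p = 0.00355) for the combination against venetoclax. HK1, the broadly expressed isozyme, had 122 and 119.8 CPM with TAK-981, 134 and 91.5 with venetoclax and 84.7 and 108 with the combination, against 135 and 145 with vehicle. It fell with the combination against vehicle (-0.54, adjusted p = 0.0457) and was called in no other comparison. The count ratio of HK2 to HK1 was 1.27 and 1.31 log2 units with TAK-981, 0.89 and 0.80 with venetoclax and 0.26 and 0.00 with the combination, against 1.47 and 1.51 with vehicle. HK3, the hexokinase of mature granulocytes, had 11 and 6 counts with TAK-981 and 0 counts in each of the other 6 libraries. CD33 and MPO, given above, were also higher with TAK-981 than with vehicle, MPO at 11 and 12 counts. The myeloid markers CD14, LYZ and ELANE did not follow. CD14 had 5 and 2 counts with TAK-981 against 6 and 1 with vehicle. LYZ had 2 and 1 against 1 and 1, and ELANE had 0 in every library. A link of these markers to HK3 was not tested. The 17 HK3 counts were at least 6.42-fold higher than vehicle when vehicle is set to a floor of 3 counts for the group. That bound covers counting error only.

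Upper glycolysis converts glucose 6-phosphate into triose phosphates. Venetoclax lowered 5 of its 7 members relative to vehicle (9.44% of all genes) and the combination lowered 4 (15.1% of all genes). GPI, the isomerase that opens this stretch, had 469 and 537 CPM with TAK-981, 274 and 276 with venetoclax and 201 and 228 with the combination, against 537 and 574 with vehicle. The libraries with venetoclax all lay below all the others, and the log2 fold change was -1.02 (SE 0.114, adjusted p = 0.00177) for venetoclax and -1.37 (SE 0.115, adjusted p = 0.000106) for the combination. ALDOA, the main aldolase, had 562 and 694 CPM with TAK-981, 308 and 345 with venetoclax and 279.9 and 286 with the combination, against 663 and 731 with vehicle. Venetoclax changed it by -1.09 without TAK-981 and by -1.15 with it. TPI1, which interconverts the triose phosphates, had 460.1 and 476 CPM with TAK-981, 285 and 265 with venetoclax and 216 and 230.0 with the combination, against 446 and 469.6 with vehicle. Against vehicle, TPI1 showed no response to TAK-981 that passed the test (0.03, adjusted p = 0.876). It fell by 0.74 and 1.04 log2 units with venetoclax and the combination. In venetoclax-treated cells TAK-981 changed it by -0.30 (adjusted p = 0.0374).

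Phosphofructokinase is the committed step and has 3 subunit genes, whose responses were not tested against each other. PFKP, the platelet-type subunit, had 69.2 and 79.1 CPM with TAK-981, 64.7 and 60.3 with venetoclax and 41.9 and 42.0 with the combination, against 103 and 112 with vehicle. Each drug changed it downwards against vehicle, by -0.54 for TAK-981, -0.78 for venetoclax and -1.36 for the combination on the log2 scale. PFKL, the liver-type subunit, had 65.5 and 73.4 CPM with TAK-981, 32.4 and 45.6 with venetoclax and 58.6 and 55.8 with the combination, against 72.4 and 71.2 with vehicle. It fell with venetoclax alone (-0.87, SE 0.151, adjusted p = 0.00664), and its combination libraries lay between the venetoclax and vehicle libraries (-0.33, SE 0.149, adjusted p = 0.135 against vehicle). Against venetoclax alone the combination had higher PFKL, at 0.54 (SE 0.152, adjusted p = 0.0203). PFKM, the muscle-type subunit, was low throughout, with 1.16 and 1.23 CPM with TAK-981, 0.457 and 0.974 with venetoclax and 1.97 and 1.89 with the combination, against 1.48 and 0.512 with vehicle. The low ALDOC, the brain-type aldolase, had 1.16 and 1.34 CPM with TAK-981, 0.990 and 1.32 with venetoclax and 1.10 and 0.728 with the combination, against 0.825 and 0.726 with vehicle, and neither gene was called in any comparison.

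Lower glycolysis turns triose phosphates into pyruvate and yields the ATP of the pathway. Of its 7 members, venetoclax lowered 5 (9.44% of all genes) and the combination 6 (15.1% of all genes) relative to vehicle, and in TAK-981-treated cells venetoclax lowered 6 (6.03% of all genes). GAPDH, the most abundant member, had 2648 and 3016 CPM with TAK-981, 1522 and 1673 with venetoclax and 1509.5 and 1457 with the combination, against 2697 and 3043 with vehicle. The 4 libraries with venetoclax lay between 1457 and 1673 CPM and the other 4 between 2648 and 3043 CPM. GAPDH is a common control gene, and its log2 fold change was -0.85 (SE 0.136, adjusted p = 0.00516) for venetoclax and -0.95 (SE 0.136, adjusted p = 0.00129) for the combination, with -0.02 (SE 0.135, adjusted p = 0.953) for TAK-981. PGK1, which makes the first ATP of this stretch, had 1177 and 1214 CPM with TAK-981, 688 and 665 with venetoclax and 537 and 539 with the combination, against 1224 and 1343 with vehicle. It changed by -0.92 with venetoclax and by -1.15 with venetoclax in TAK-981-treated cells. PGAM1, a phosphoglycerate mutase, had 198 and 211 CPM with TAK-981, 113 and 133 with venetoclax and 106 and 108 with the combination, against 198 and 213 with vehicle, with changes of -0.74 and -0.93 in the same 2 comparisons. GAPDH, PGK1 and PGAM1 have processed copies elsewhere in the genome, so reads of these genes could be shared or dropped.

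Enolase makes phosphoenolpyruvate, and ENO1 and ENO2 changed by different amounts. ENO1, the broadly expressed enolase, had 2577 and 2739 CPM with TAK-981, 1382 and 1240.3 with venetoclax and 950.3 and 986 with the combination, against 2251 and 2539 with vehicle. Venetoclax changed it by -0.87 (SE 0.128, adjusted p = 0.00391) against vehicle and by -1.46 (SE 0.13, adjusted p = 0.00115) in TAK-981-treated cells. ENO2, the neuron-type enolase, had 18.9 and 21.8 CPM with TAK-981, 5.56 and 4.21 with venetoclax and 4.12 and 4.37 with the combination, against 32.8 and 33.6 with vehicle. Both drugs lowered ENO2, with the combination at 4.24 ± 0.18 CPM and venetoclax at 4.88 ± 0.955 CPM, against 33.2 ± 0.568 CPM with vehicle (SD, n = 2 libraries each). The log2 fold changes were -0.71 (SE 0.154, adjusted p = 0.0185) for TAK-981, -2.79 (SE 0.174, adjusted p = 0.000362) for venetoclax and -2.97 (SE 0.177, adjusted p = 3.09e-05) for the combination, the largest fall of any member in each of these comparisons. ENO2 counts stood at -7.09 and -6.97 log2 units relative to ENO1 with TAK-981, -7.96 and -8.20 with venetoclax and -7.85 and -7.82 with the combination, against -6.10 and -6.24 with vehicle, so ENO2 stood lower relative to ENO1 in all 6 libraries with a drug. ENO3, the muscle-type enolase, was low, with 2.36 and 2.78 CPM with TAK-981, 2.67 and 1.64 with venetoclax and 3.84 and 2.84 with the combination, against 4.08 and 2.94 with vehicle, and was not called. PKM, the pyruvate kinase of most dividing cells, had 1006 and 1039 CPM with TAK-981, 715 and 416 with venetoclax and 460.0 and 427 with the combination, against 794 and 853 with vehicle. It fell with the combination (-0.89, SE 0.211, adjusted p = 0.0133), and with venetoclax alone 1 library lay just below vehicle and the other far below, a comparison that was not called (-0.54, SE 0.21, adjusted p = 0.0975).

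LDHA, the lactate dehydrogenase subunit that favours lactate production, was lower with the combination than in each other group. It had 2295 and 2241 CPM with TAK-981, 2402 and 1404 with venetoclax and 782 and 716 with the combination, against 2178 and 2378 with vehicle. Venetoclax replicate 1 lay above the vehicle libraries and replicate 2 below them, and both combination libraries lay far below the other 6. Its log2 fold change was -1.60 (SE 0.222, adjusted p = 0.00115) for the combination against vehicle, -1.60 (SE 0.222, adjusted p = 0.00466) against TAK-981 and -1.34 (SE 0.22, adjusted p = 0.00204) against venetoclax, while venetoclax alone stood at -0.26 (SE 0.217, adjusted p = 0.424) and TAK-981 alone at -0.01 (SE 0.216, adjusted p = 0.99). Without venetoclax replicate 1, LDHA was called lower with venetoclax alone, at -0.69, and the combination stood at -0.91 against venetoclax. Without replicate 2, the same values were 0.08, not called, and -1.69. LDHB, the subunit typical of oxidative tissues, had 559.6 and 526 CPM with TAK-981, 527 and 686 with venetoclax and 523 and 554 with the combination, against 562 and 652 with vehicle, and was called in no comparison. Its TAK-981 and combination libraries lay below both vehicle libraries, and the other pairs of groups overlapped. The count ratio of LDHB to LDHA was -2.04 and -2.09 log2 units with TAK-981, -2.19 and -1.03 with venetoclax and -0.58 and -0.37 with the combination, against -1.95 and -1.87 with vehicle.

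Lactate leaves through monocarboxylate carriers, of which SLC16A3 encodes MCT4, an exporter of glycolytic cells, and SLC16A1 the broadly expressed MCT1. SLC16A3 had 20.3 and 24.8 CPM with TAK-981, 5.56 and 3.55 with venetoclax and 7.04 and 6.48 with the combination, against 19.1 and 19.6 with vehicle. All 4 libraries with venetoclax were far below the rest, at -2.13 (SE 0.217, adjusted p = 0.00145) for venetoclax against vehicle and -1.73 (SE 0.208, adjusted p = 0.00293) for the combination against TAK-981. SLC16A1 had 201 and 197 CPM with TAK-981, 331 and 355 with venetoclax and 195 and 204 with the combination, against 239.5 and 242 with vehicle. It was highest with venetoclax alone, at 0.51 (SE 0.0916, adjusted p = 0.00744) against vehicle, and TAK-981 lowered it in venetoclax-treated cells, at -0.78 (SE 0.0922, adjusted p = 0.00052). The ratio of SLC16A3 to SLC16A1 counts was -3.30 and -2.99 log2 units with TAK-981, -5.90 and -6.65 with venetoclax and -4.79 and -4.97 with the combination, against -3.65 and -3.63 with vehicle.

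**Figure D3:**
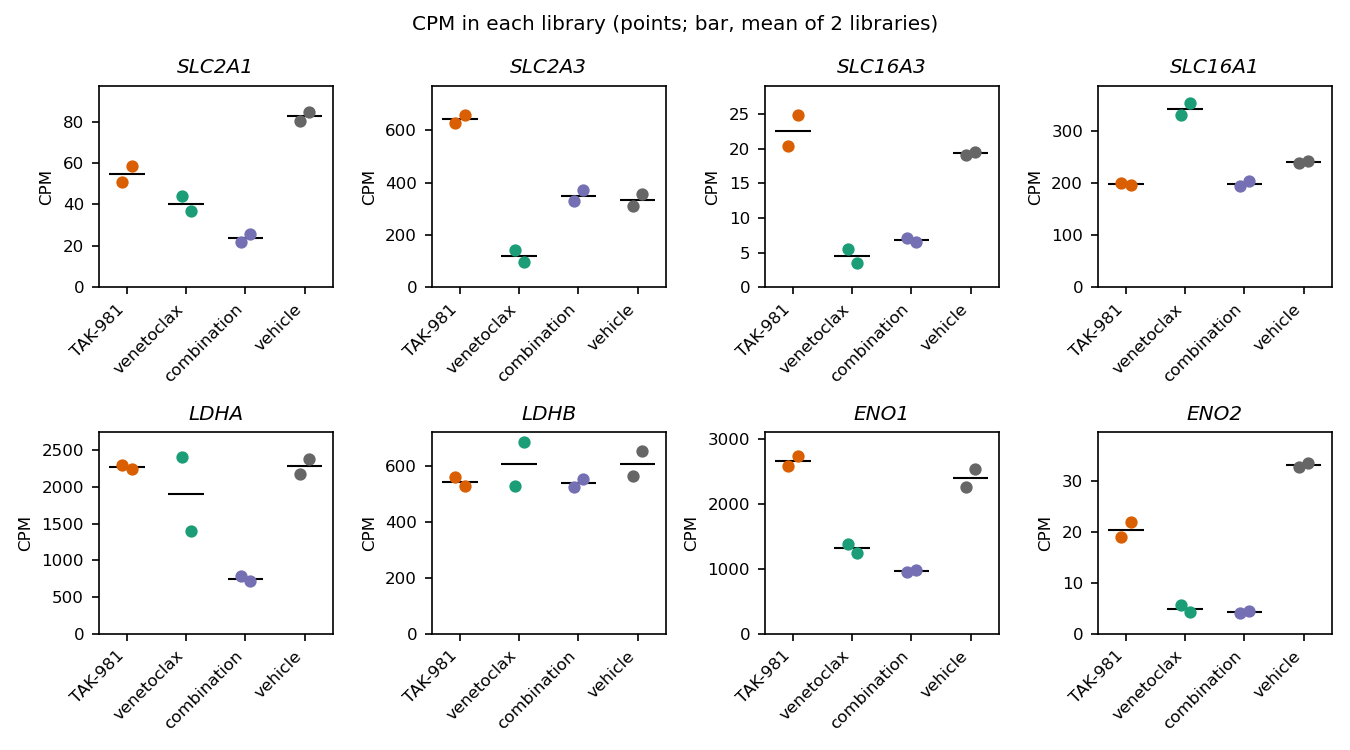
CPM of glucose carriers (SLC2A1, SLC2A3), lactate carriers (SLC16A3, SLC16A1), lactate dehydrogenases (LDHA, LDHB) and enolases (ENO1, ENO2) by group, each axis from 0, with 1 point per library and a bar at the mean of 2. LDHA is lowest in the combination, with the 2 venetoclax libraries far apart, and SLC2A3 is high with TAK-981 and low with venetoclax. LDHB with venetoclax overlaps each other group, and with TAK-981 or the combination it lies below vehicle.

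At the pyruvate dehydrogenase step, venetoclax lowered the kinase PDK1 and raised 3 subunit genes. PDK1, a kinase that inactivates the complex and a known hypoxia-inducible gene, had 115 and 128 CPM with TAK-981, 94.3 and 61.7 with venetoclax and 45.7 and 38.2 with the combination, against 154 and 168 with vehicle. It fell with venetoclax (-1.06, SE 0.183, adjusted p = 0.0066) and further with the combination (-0.88, SE 0.187, adjusted p = 0.00623 against venetoclax). DLAT, the acetyltransferase core, had 127 and 131 CPM with TAK-981, 246 and 245 with venetoclax and 119.8 and 119 with the combination, against 158 and 165 with vehicle. PDHA1, the catalytic alpha subunit, had 114 and 115 CPM with TAK-981, 183 and 139 with venetoclax and 114 and 124 with the combination, against 113 and 119.9 with vehicle. PDHB, its beta partner, had 90.2 and 85.5 CPM with TAK-981, 99.2 and 102 with venetoclax and 85.1 and 88.5 with the combination, against 74.9 and 86.0 with vehicle. Their log2 fold changes for venetoclax against vehicle were 0.61 (SE 0.0863, adjusted p = 0.00348), 0.47 (SE 0.129, adjusted p = 0.0338) and 0.32 (SE 0.1, adjusted p = 0.0483), with higher values in both venetoclax libraries than in either vehicle library. In TAK-981-treated cells venetoclax gave -0.11, 0.06 and -0.02, none called. PDHB lost its call under 13 of 17 alternative analyses.

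Pentose phosphate genes showed smaller and mixed changes. PGD, the dehydrogenase that yields NADPH and ribulose 5-phosphate, had 98.5 and 111 CPM with TAK-981, 211 and 188 with venetoclax and 121 and 138 with the combination, against 133 and 137 with vehicle. It rose with venetoclax alone (0.56, SE 0.111, adjusted p = 0.0104) and was lower with the combination than with venetoclax (-0.62, SE 0.111, adjusted p = 0.00298). In the non-oxidative branch TKT, a transketolase, had 136 and 145 CPM with TAK-981, 130.5 and 185 with venetoclax and 125 and 127 with the combination, against 211 and 221 with vehicle. It fell with TAK-981 (-0.62, SE 0.148, adjusted p = 0.027) and with the combination (-0.78, SE 0.148, adjusted p = 0.00511), and its venetoclax libraries lay below vehicle without passing the test (-0.45, SE 0.147, adjusted p = 0.059). TALDO1, the transaldolase, had 62.1 and 66.6 CPM with TAK-981, 56.2 and 83.5 with venetoclax and 86.3 and 95.8 with the combination, against 57.8 and 57.5 with vehicle, and was higher with the combination than with vehicle (0.66, SE 0.165, adjusted p = 0.0168). RPIA, the ribose phosphate isomerase, had 43.8 and 47.7 CPM with TAK-981, 66.9 and 72.4 with venetoclax and 45.5 and 51.8 with the combination, against 54.6 and 58.9 with vehicle. RPE, the ribulose phosphate epimerase, had 109 and 106 CPM with TAK-981, 139.9 and 146 with venetoclax and 83.4 and 81.3 with the combination, against 126 and 135 with vehicle. In venetoclax-treated cells both were lower with TAK-981, RPIA at -0.52 and RPE at -0.79, and RPE also fell with the combination against vehicle (-0.66, SE 0.09, adjusted p = 0.000997). PGLS, the lactonase between the oxidative steps, had 16.7 and 22.0 CPM with TAK-981, 9.60 and 17.7 with venetoclax and 18.8 and 20.2 with the combination, against 16.9 and 16.8 with vehicle, and was not called.

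Venetoclax was tested against a control in 2 comparisons that share no library, with vehicle as background and with TAK-981 as background, though both came from 1 fit. Of the 15 members lower with venetoclax alone and the 17 lower in TAK-981-treated cells, 14 were the same genes, which is 93.3% of the first list and 82.4% of the second. Among all genes, 2.85% were lower in both. The 14 were HK2, GPI, PFKP, ALDOA, TPI1, GAPDH, PGK1, PGAM1, ENO1, ENO2, SLC2A1, SLC2A3, SLC16A3 and PDK1. PFKL was called lower without TAK-981 and not with it, and PKM, LDHA and RPE with it and not without. The interaction was called for none of these 4, with adjusted p = 0.2 for PFKL, 0.269 for PKM, 0.127 for LDHA and 0.132 for RPE, so a difference between the backgrounds was not shown. PFKL was called lower also in TAK-981-treated cells with the 4 libraries of that comparison alone (-0.28), and PKM with venetoclax alone by DESeq2 (-0.55) and without venetoclax replicate 1 (-0.98). None of the 5 members that rose with venetoclax alone, SLC16A1, PDHA1, PDHB, DLAT and PGD, was called with TAK-981 present (1.21% of all genes were higher in both). PGD stood at 0.31 there, with an adjusted p of 0.125, and was called higher with the 4 libraries alone or without either 1 of the venetoclax libraries. The interaction of PGD was -0.25 (adjusted p = 0.402) and that of SLC16A1 -0.51 (adjusted p = 0.137), neither called. When only the 4 libraries of venetoclax and vehicle were fitted, 8 members stayed called (GPI, PFKP, ALDOA, PGK1, ENO2, SLC2A1, SLC2A3 and SLC16A3) and 0 of the 5 rises. Without vehicle replicate 1 the comparison called 12 members and without vehicle replicate 2 it called 13. The comparison in TAK-981-treated cells called 8 members without combination replicate 2 and 11 without TAK-981 replicate 2.

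**Figure D4:**
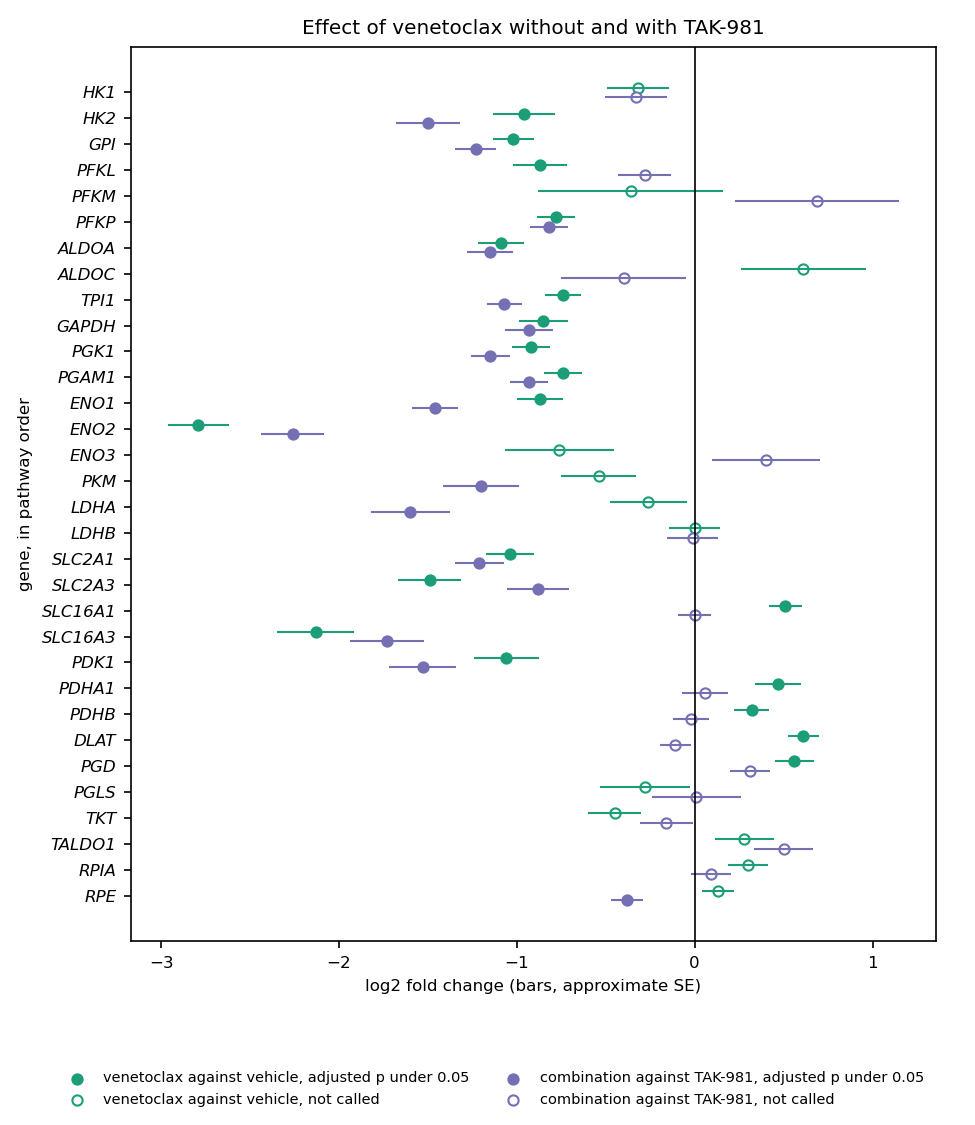
Log2 fold change (x axis, bars are approximate SE) of each member for venetoclax against vehicle and for the combination against TAK-981, with filled points for calls. From HK2 to ENO2 and in SLC2A1, SLC2A3, SLC16A3 and PDK1 all filled points of both comparisons lie left of 0. The rises of SLC16A1, PDHA1, PDHB, DLAT and PGD are filled for venetoclax against vehicle only.

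TAK-981 was likewise set against a control with and without venetoclax. TAK-981 alone lowered PFKP, ENO2, SLC2A1, DLAT and TKT and raised SLC2A3. Of these, PFKP, SLC2A1 and DLAT were lower and SLC2A3 was higher also in venetoclax-treated cells, which is 60% of the falls without and 20% of the falls with venetoclax (4.84% of all genes were lower in both and 5.01% higher). DLAT changed by -0.33 (SE 0.0864, adjusted p = 0.0396) without venetoclax and by -1.04 (SE 0.0873, adjusted p = 0.000132) with it. TKT changed by -0.62 and -0.33, the second not called. The falls called in venetoclax-treated cells and not without venetoclax included the upper and lower glycolysis genes GPI (-0.35), TPI1 (-0.30), PGK1 (-0.33) and ENO1 (-0.44), none of them called in all alternatives, and HK2, LDHA, SLC16A1, PDK1, PDHA1, PGD, RPIA and RPE. The 6 calls for TAK-981 against vehicle all lost significance without any 1 of the 4 libraries compared, and kept their direction. With both venetoclax libraries left out, an alternative added after seeing the data, the count was 13, and with the 4 libraries of the comparison alone it was 14. Without either combination library DLAT and TKT lost their calls, which left 4. The calls in venetoclax-treated cells numbered 10 without either 1 of the combination libraries.

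**Figure D5:**
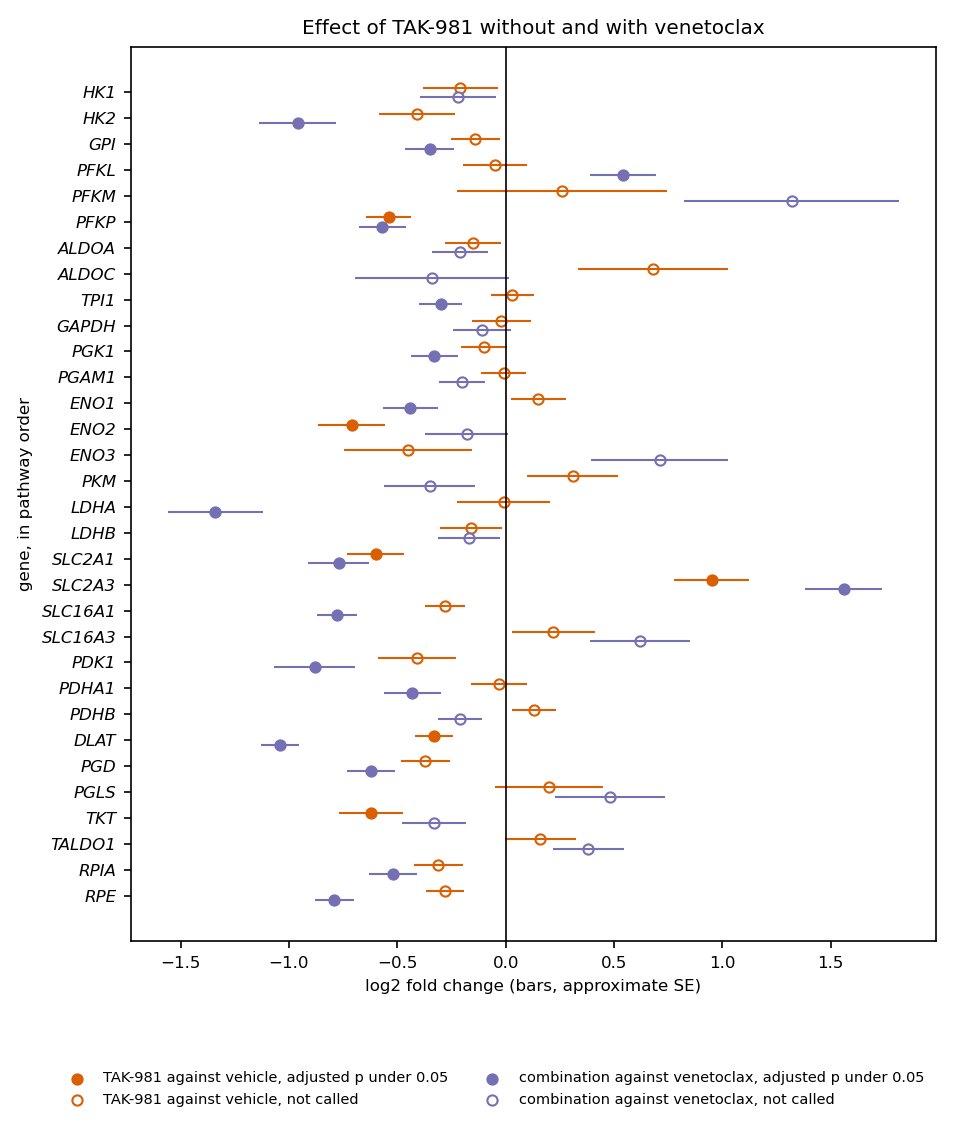
Log2 fold change (x axis, bars are approximate SE) of each member for TAK-981 against vehicle and for the combination against venetoclax, with filled points for calls. SLC2A3 lies right of 0 in both comparisons, at 0.95 and 1.56, and LDHA lies at -0.01 without venetoclax and at -1.34 with it.

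Whether the effect of TAK-981 differed with venetoclax was tested by the interaction, the effect of TAK-981 in venetoclax-treated cells less its effect without venetoclax. By edgeR 0 of the 32 members were called (0.0311% of all genes were), and 10 had an unadjusted p under 0.05 (31.2%, against 18.9% of all genes). Aside from the low PFKM (1.05), ALDOC (-1.01) and ENO3 (1.17), the largest interaction values were those of LDHA (-1.34, SE 0.308, adjusted p = 0.127), DLAT (-0.71, SE 0.122, adjusted p = 0.0968), PKM (-0.66, SE 0.297, adjusted p = 0.269) and SLC2A3 (0.62, SE 0.245, adjusted p = 0.229). By DESeq2 3 members were called, ENO1, LDHA and DLAT, by limma-voom 0, and without the filter on low counts 7. Leaving out either 1 of the venetoclax libraries gave calls, with LDHA, DLAT, SLC16A1 and RPE among them both times. LDHA then stood at -0.90 without replicate 1 and at -1.69 without replicate 2. For PDHA1 and PDHB the interaction was -0.41 (adjusted p = 0.269) and -0.34 (adjusted p = 0.24), so the difference between a rise without TAK-981 and none with it was not shown by the test for either gene.

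Other genes of the same pathways were counted from lists of neighbouring enzymes, carriers and regulators. The counts stand beside 11.4% of all genes higher and 9.44% lower with venetoclax, and 12.8% higher and 15.1% lower with the combination. Of 14 other tested glycolysis genes, venetoclax lowered 3 (21.4%) and raised 1 (7.14%) relative to vehicle, and the combination lowered 7 (50%) and raised 2 (14.3%), so the shares raised were below or near those of all genes. PFKFB3 and PFKFB4, which set the level of the phosphofructokinase activator fructose 2,6-bisphosphate, changed by -1.37 and -3.65 with venetoclax and by -1.83 and -4.90 with the combination. PFKFB4 stood at 10.7 and 2.14 CPM in the 2 venetoclax libraries, and its -3.65 had an SE of 0.515, against 0.103 for PFKFB3. PGM1, which links glycogen to glycolysis, changed by -0.69 with venetoclax and -1.12 with the combination. BPGM, a mutase of red cells, rose by 0.77 with venetoclax. PGK2 is an intronless copy of PGK1, so its reads could stem from PGK1. Of 12 other tested carriers, venetoclax lowered 3, among them the fructose carrier SLC2A5 (-1.99), and raised MPC1 (0.46), a subunit of the mitochondrial pyruvate carrier. The others lowered were SLC2A4, the insulin-regulated glucose carrier (-1.09, SE 0.329), which also fell with TAK-981 (-1.72, SE 0.346), and SLC2A13, an inositol carrier (-0.67). SLC2A4 was low throughout, with 0.645 and 0.642 CPM with TAK-981 and 0.685 and 1.21 with venetoclax, against 1.95 and 2.305 with vehicle. SLC2A9, a urate carrier, rose with the combination (1.59), EMB, a partner protein of lactate carriers, fell with it (-0.59), and SLC16A7, the lactate carrier MCT2, rose with TAK-981 (1.26). Of 7 other tested genes of the pyruvate dehydrogenase step, DLD, a subunit of the complex, rose with venetoclax (0.52) and the kinase PDK3 fell (-0.42). With the combination the kinase PDK2 rose (0.81), PDK3 fell (-0.65) and PDHX, which anchors a subunit of the complex, fell (-0.40). Of 20 citric acid cycle genes, 4 (20%) rose with venetoclax and 0 fell, FH (0.56), IDH3A (0.55), SDHB (0.52) and ME2 (0.51), and with the combination against vehicle 1 rose (5%) and 2 fell (10%), both shares below those of all genes. Of 6 other tested pentose phosphate genes, H6PD, the enzyme of the endoplasmic reticulum, fell with venetoclax (-0.81), and PRPS2, which makes the activated ribose of nucleotides, fell with TAK-981 (-0.71) and with the combination (-0.78).

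Among 12 tested regulators of the glucose and oxygen response, EGLN1 and TXNIP were called with venetoclax. EGLN1, a prolyl hydroxylase that marks HIF for destruction and is itself hypoxia-inducible, had 119.9 and 126 CPM with TAK-981, 77.5 and 65.3 with venetoclax and 53.5 and 50.5 with the combination, against 145 and 153 with vehicle. It changed by -1.07 with venetoclax and by -1.52 with the combination against vehicle. TXNIP, a glucose-induced protein that restrains glucose uptake, had 604 and 618 CPM with TAK-981, 138 and 137 with venetoclax and 376 and 437 with the combination, against 266 and 299 with vehicle. TAK-981 raised TXNIP by 1.11 and venetoclax changed it by -1.04, and in the combination it stood above vehicle by 0.52. TXNIP was thus highest with TAK-981 and lowest with venetoclax, the order that SLC2A3 also showed. MYC, a transcription factor with many glycolytic targets, fell with TAK-981 (-0.66) and was not called for venetoclax or the combination against vehicle. MLXIP, a glucose-sensing transcription factor, rose with TAK-981 (0.44) and with the combination (0.59).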

How the data were processed

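RNA of 8 libraries was sequenced as single reads of 51 cycles, per the labels' protocols. The authors deposited a table of raw read counts, 1 whole number for each gene and library. The submitters' processing notes list build hg38 and the tools HTSeq 0.11.1, STAR 2.6.0, Trimmomatic and edgeR. Annotation release, strandedness and the handling of multi-mapped reads were not found in the labels or the file header, so overlapping genes and near-identical copies are uncertain. On library preparation the sources disagree, with ribosomal depletion in the series design and a SMART-Seq kit for low input in the protocols. That choice decides how RNAs without poly(A) tails are captured.

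Groups came from the treatment labels. Counts were filtered with filterByExpr (minimum count 10), scaled by TMM and compared by the quasi-likelihood F test of edgeR in 1 fit over all 8 libraries (R 4.3.3, edgeR 4.0.16, limma 3.58.1, DESeq2 1.42.0), two-sided, with Benjamini-Hochberg adjustment over 12843 genes and a threshold of 0.05. The SE was derived by dividing the size of the log2 fold change by the root of its F statistic and is approximate. The deposited gene lengths, in another column, were used only for ratios per kilobase and are not printed. The scripts were tested on simulated data. The members and lists were chosen with earlier results of these data known. Values in every library are given for members called in any of the 6 comparisons and for their isozyme or partner subunit. Up to 4 called genes per list of other pathway genes and comparison, those of smallest p, were eligible to be named. Alternatives changed the scaling, filter, tool, replicate block and libraries. Intervals and floors cover counting error only. No replicate pair agreed within sampling noise.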

Additional observations from a re-analysis of the deposited data

How the results depend on the processing

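Each comparison of 2 groups had 17 or 18 alternatives. Over those comparisons and the interaction together, 0 called member values changed sign, and of 1790 values not called in either analysis 67 did. Of the members called, 8 of 20 for venetoclax against vehicle, 16 of 20 for the combination against vehicle, 8 of 17 for the combination against TAK-981, 9 of 17 for the combination against venetoclax and 0 of 6 for TAK-981 against vehicle were called in every alternative. Leaving out 1 library at a time gave 0 to 14 members and 336 to 3879 genes for TAK-981 against vehicle, and 12 to 26 members and 253 to 5360 genes for venetoclax against vehicle. It gave 16 to 23 members and 1431 to 6152 genes for the combination against vehicle, 8 to 22 members and 65 to 3696 genes against TAK-981, and 10 to 22 members and 2386 to 7204 genes against venetoclax. For the interaction it gave 0 to 15 members and 0 to 4440 genes. A group with 1 library left was assumed to vary like the others. In these ranges the highest member counts for TAK-981 against vehicle and for the combination against TAK-981 include HK3, which failed the chosen filter. HK3 had counts with TAK-981 only. With the 4 libraries of a comparison alone, TAK-981 against vehicle called 14 members and 4096 genes, venetoclax against vehicle 8 and 200, the combination 5740 genes against vehicle and 3746 against TAK-981, and 10 members and 2497 genes against venetoclax. Without both venetoclax libraries, an alternative chosen after seeing the data, TAK-981 against vehicle called 13 members and 3863 genes, and the combination 6110 genes against vehicle and 3678 against TAK-981. These compare with 1562, 2676, 3582, 1130 and 5086 genes by the chosen test for TAK-981, venetoclax and the combination against vehicle and the combination against TAK-981 and venetoclax. No filter on low counts gave 1875 genes for the combination against TAK-981. For the interaction, with 4 genes and 0 members by the chosen test, no filter gave 1098 genes and 7 members, DESeq2 300 genes and 3 members, limma-voom 9 genes and DESeq2 size factors 8. The replicate block gave 24 genes for the interaction, and 6, 21, 21, 17, 17 and 0 members in the 6 comparisons. With 2 replicates per group the shared numbers are no sign of pairing, and deviations of same-numbered libraries correlated between -0.0429 and 0.384. Library totals in place of TMM moved the median of all genes to 0.142 for the combination against venetoclax and to 0.117 for the interaction, and gave 2917 higher and 1701 lower genes for the combination against venetoclax, against 2266 and 2820 by TMM. They gave 1015 higher and 1480 lower genes for venetoclax against vehicle (1463 and 1213 by TMM), and 1929 and 1544 for the combination against vehicle (1647 and 1935). The cause of each change was not tested.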
